A study of Homo sapiens with 8 samples.

Results

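WNT ligands, their receptors and their feedback genes were followed in HSC-5, a human cutaneous squamous cell carcinoma line, after Cas9 had been directed to EZH2. EZH2 is the catalytic subunit of a Polycomb complex, and its mark on histone H3 holds many developmental genes silent. Members were chosen by a rule on gene symbols, which was set with earlier results of these data known. By that rule 61 of the 20294 genes of the deposited count table qualified. They were the WNT, FZD, DKK, SFRP, LGR and RSPO families and 17 further named genes, from the co-receptors LRP5 and LRP6 to the TCF/LEF factors. All libraries came from HSC-5 cells that stably carried lentiviral Cas9 and had been selected with G418. The control group (2 libraries) carried an empty vector, and the others carried 1 of 2 guide RNAs against EZH2, sgEZH2-1 (3 libraries) or sgEZH2-2 (3 libraries). No time point is given. The labels mention no cloning and call the libraries replicates without naming the cultures behind them. They state that 1 further control library, not analysed here, was left out because it clustered apart. P-values therefore measure the spread between these libraries, which may be technical and, among the controls, understated.

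WNT proteins are secreted, lipid-modified signals that bind Frizzled receptors and the co-receptors LRP5 and LRP6. In the canonical branch this stops a complex built around APC and Axin from destroying beta-catenin, which then enters the nucleus and switches on genes with TCF/LEF factors. Several of those genes, among them AXIN2 and NKD1, encode brakes of the pathway, so that they serve as common readouts of it. In skin the pathway is known for hair follicle formation and for maintaining epidermal stem cells.

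Library totals ran from 12607952 to 15468597 counts. EZH2 transcript, in CPM (counts scaled to a library total of 1000000), was at 82.7 and 84.1 in both controls, 56.4, 56.3 and 48.0 with sgEZH2-1, and 73.9, 67.6 and 65.1 with sgEZH2-2. It was lower in all 6 guide libraries than in the controls, with a log2 fold change of -0.64 for sgEZH2-1 (adjusted p = 0.000529) and -0.28 for sgEZH2-2, which did not pass the test (adjusted p = 0.0699), nor did the pooled value of -0.45 (adjusted p = 0.113). All 11 squamous keratinocyte markers, KRT5 and TP63 among them, were detected. KRT14 was near the floor, at 0.426 and 0.522 CPM in the controls, 0.541, 0.753 and 0.560 with sgEZH2-1, and 0.552, 0.236 and 1.60 with sgEZH2-2. The summed CPM of the 11 markers ran from 3589 to 3725 (controls), 3137 to 3690 (sgEZH2-1) and 3114 to 3227 (sgEZH2-2). KRT5 gave most of that sum, and single markers differed from it. With sgEZH2-1 TP63 fell by 1.01 on the log2 scale (adjusted p = 1.27e-05). KRT16 rose by 1.09 (adjusted p = 0.000359) and KRT17 by 0.82 (adjusted p = 0.00581) with that guide. With sgEZH2-2 the called markers were KRT5 (-0.36, adjusted p = 0.00727), DSC3 (-0.36, adjusted p = 0.00819) and DSG3 (-0.30, adjusted p = 0.0212). The 8 fibroblast markers summed to 5.93 to 7.24, 4.56 to 8.75 and 11.04 to 13.9 CPM in the same order, with COL1A2 at 0. Nearly all of it came from COL1A1, which rose by 0.88 with sgEZH2-2 (adjusted p = 0.0437), against -0.0095 with sgEZH2-1 (adjusted p = 0.984). The 7 leukocyte markers summed to 14.2 to 14.6, 14.2 to 18.5 and 11.7 to 13.7 CPM, with CD3E at 0. Most of it came from CD68, which was not called against control but was higher with sgEZH2-1 than with sgEZH2-2 (0.44, adjusted p = 0.0261). The 6 melanocyte markers summed to at most 4.09 CPM in any library, with TYR, DCT and SOX10 at 0. The 6 endothelial markers summed to 177 to 184, 76.6 to 81.7 and 143 to 160 CPM, nearly all of it from CDH5, while KDR was at 0. CDH5 was at -1.19 with sgEZH2-1 (adjusted p = 1.83e-06) and -0.24 with sgEZH2-2 (adjusted p = 0.0364). The guides differed by -0.95 (adjusted p = 6.25e-06), and the pooled value of -0.64 was not called (adjusted p = 0.318). The part of these marker levels in the results on WNT genes was not tested.

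Of the 61 members, 37 had enough counts to be tested, and 4 of those 37 (AXIN2, NKD1, FZD8 and FZD10) did not reach the minimum level in both controls and so passed it through the guide libraries. A gene was called at an adjusted p of at most 0.05 in edgeR's quasi-likelihood test. With both guides pooled against control, 8 members rose and 1 fell. Among all 13124 genes tested 4.36% were called, 3.76% higher and 0.594% lower. The median log2 fold change was 0.18 over the tested members and -0.0043 over all tested genes. The rises were those of AXIN2, NKD1, TCF7 and LEF1, which are common target or nuclear genes of the pathway, of the receptor gene FZD10, and of the ligand genes WNT3A, WNT10B and WNT5B. DKK3 fell.

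With sgEZH2-1 alone 13 members rose and 3 fell, against 20.8% of all tested genes called, 11.3% higher and 9.51% lower. With sgEZH2-2 alone 9 rose and 1 fell, against 8.68% called, 6.18% higher and 2.50% lower. The median of the tested members was 0.15 with sgEZH2-1 and 0.17 with sgEZH2-2, and that of all tested genes was -0.0094 and 0.00091. The 8 members above and FZD7 were called higher with each guide (9 of 37, against 4.40% of all tested genes), and DKK3 was called lower with each (1 of 37, against 1.01%). Of those called higher, AXIN2, NKD1 and FZD10 had passed the minimum level through the guide libraries. The comparisons of the guides share their 2 controls. All 6 guide libraries lay above both controls in 12 tested members (10.2% of all tested genes) and below both in 2, DKK3 and WNT3 (9.77%). The 12 include AXIN2, NKD1, FZD8 and FZD10, which were tested through the guide libraries, where they were high. In bulk RNA, fewer cells of a type and less RNA per cell cannot be told apart.

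**Figure D1:**
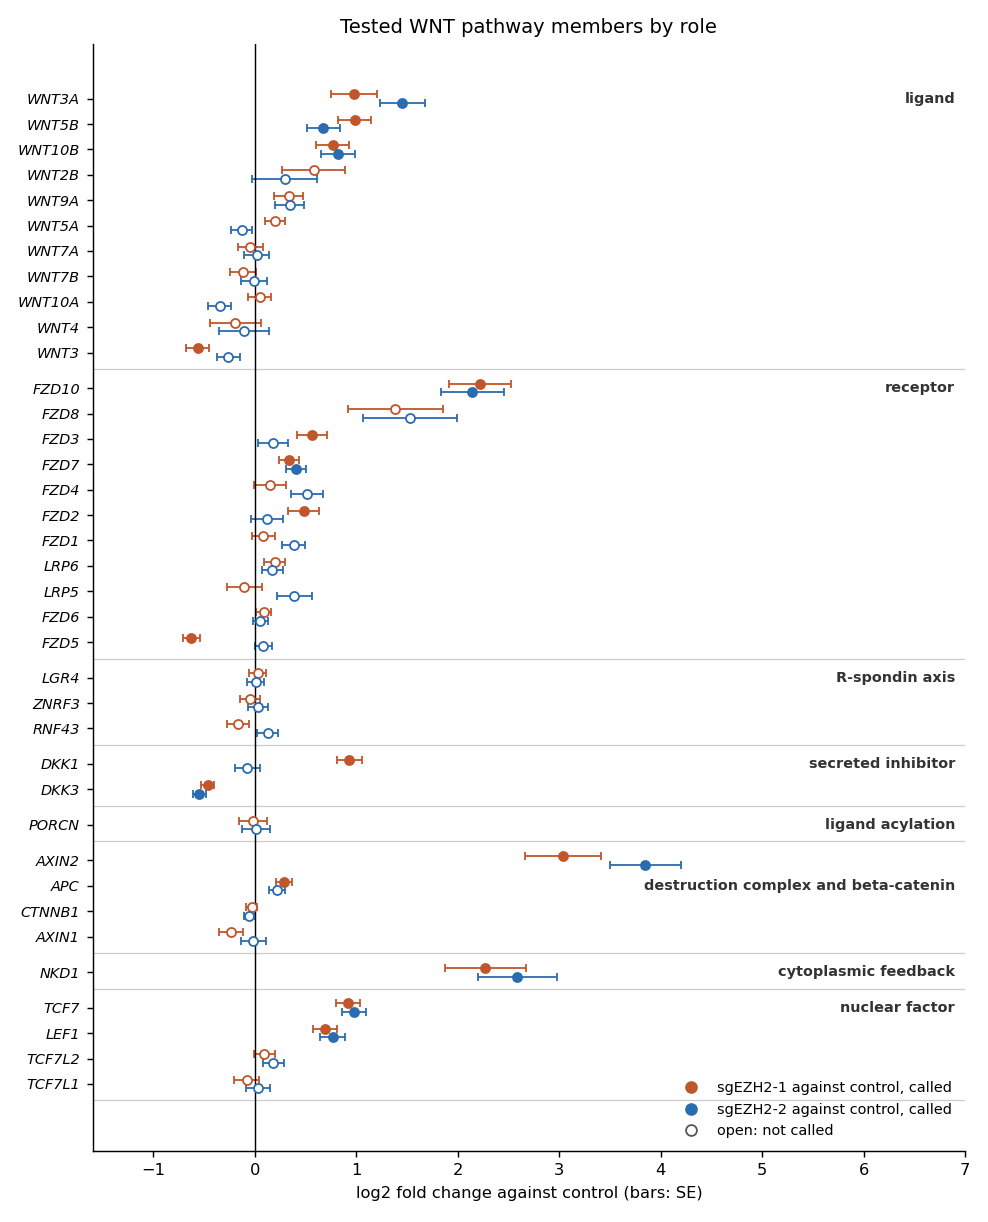
Log2 fold change against control of the 37 tested members, grouped by role, for sgEZH2-1 (orange) and sgEZH2-2 (blue); bars are standard errors and filled points passed an adjusted p of 0.05. AXIN2, NKD1 and FZD10 lie farthest to the right with each guide, while DKK1 and FZD5 are called with sgEZH2-1 and lie near 0 with sgEZH2-2.

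Promoter windows from RefSeq (the 250 bases before a transcript start, GRCh38.p14) were matched for 4 of the 10 members called in 1 direction with each guide: LEF1, TCF7, WNT3A and WNT5B. Those of LEF1, TCF7 and WNT3A are shown because the first pair encodes the DNA-binding factors of the pathway and the third one a ligand that rose beside them. Capitals mark the binding motif of TCF/LEF factors, searched on both strands with any overlap counted. Its forms were CTTTGAA, the variant CTTTGAT, the variant CTTTGTA and the variant CTTTGTT. The windows of LEF1 and TCF7 lie inside the annotated genes, before internal starts, and that of WNT3A lies just before the gene. For TCF7, the first and the second start named below are these internal starts. Both windows lie downstream of the annotated start of the gene at base 134114711.
LEF1, chr4:108166302-108166551, minus strand: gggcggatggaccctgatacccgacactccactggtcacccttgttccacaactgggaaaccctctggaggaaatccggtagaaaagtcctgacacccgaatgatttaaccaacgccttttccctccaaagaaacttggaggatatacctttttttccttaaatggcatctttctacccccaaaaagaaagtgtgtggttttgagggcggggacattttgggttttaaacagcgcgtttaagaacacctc
TCF7, upstream of its first start, chr5:134115363-134115612, plus strand: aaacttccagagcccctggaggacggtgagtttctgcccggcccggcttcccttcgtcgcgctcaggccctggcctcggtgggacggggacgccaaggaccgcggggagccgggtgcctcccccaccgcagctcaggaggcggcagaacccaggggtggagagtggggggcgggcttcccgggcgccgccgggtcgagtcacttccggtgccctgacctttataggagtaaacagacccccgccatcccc
TCF7, upstream of its second start, chr5:134123368-134123617, plus strand: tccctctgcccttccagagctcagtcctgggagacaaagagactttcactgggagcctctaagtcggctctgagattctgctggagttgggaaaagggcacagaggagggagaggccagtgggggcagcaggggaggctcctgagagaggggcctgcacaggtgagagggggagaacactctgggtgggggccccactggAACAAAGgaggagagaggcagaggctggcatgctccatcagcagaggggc
WNT3A, chr1:228006748-228006997, plus strand: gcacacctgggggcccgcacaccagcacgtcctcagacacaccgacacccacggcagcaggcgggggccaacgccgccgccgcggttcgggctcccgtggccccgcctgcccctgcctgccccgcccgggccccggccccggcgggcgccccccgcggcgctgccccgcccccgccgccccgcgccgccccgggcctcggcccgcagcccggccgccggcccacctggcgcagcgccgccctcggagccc
A single motif, CTTTGTT read on the opposite strand, was found in the second TCF7 window and none in the other windows of these 4 genes, 6 in all (1 of 6 windows, or 16.7%). Among all 35116 windows of this length 11.96% held a motif, and among those of tested genes 8.20%. The WNT3A window was 86.0% G and C with 38 CG pairs, against 47.6% and 8 in LEF1 and medians of 64.4% and 20 among tested genes. The first and the second TCF7 window had 70.8% and 62.0% G and C, with 22 CG pairs and 1. No binding or histone mark was measured here, so these are letters of the sequence only.

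Feedback genes of the cytoplasm, AXIN2 and NKD1, rose with each guide. AXIN2, a scaffold of the beta-catenin destruction complex (chromosome 17, 65528563 to 65561647, minus strand, GRCh38), was nearly silent in the controls, at 0.355 and 0.196 CPM, or 5 and 3 counts. It stood at 2.63, 2.39 and 1.89 CPM with sgEZH2-1 and at 3.38, 4.33 and 4.42 CPM with sgEZH2-2. No guide library came near a control, and every sgEZH2-2 library lay above every sgEZH2-1 library. AXIN2 rose by 3.04 on the log2 scale with sgEZH2-1 (SE 0.37, adjusted p = 0.000389), by 3.85 with sgEZH2-2 (SE 0.35, adjusted p = 0.000122) and by 3.49 pooled (SE 0.51, adjusted p = 0.00368). Without the second control the pooled value was 3.12, with an adjusted p of 0.0808. AC004805.1, a gene that shares 1316 exon bases with AXIN2 on the same strand, had 0 counts in every library.

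NKD1, which binds Dishevelled and dampens the signal (chromosome 16, 50548330 to 50649249), followed the same order of groups. It was at 0.284 and 0.326 CPM in the controls, at 1.85, 1.57 and 1.12 CPM with sgEZH2-1, and at 2.00, 1.57 and 2.06 CPM with sgEZH2-2. The controls lay apart from all 6 guide libraries, and the guides overlapped each other. NKD1 rose by 2.27 with sgEZH2-1 (SE 0.40, adjusted p = 0.00287), by 2.59 with sgEZH2-2 (SE 0.39, adjusted p = 0.00235) and by 2.44 pooled (adjusted p = 0.00537), and the pooled call was lost without either control (adjusted p = 0.0868 and 0.0792). Its paralog NKD2 had 2 counts in all.

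Among nuclear factors the rises were those of TCF7 and LEF1. TCF7 (chromosome 5, 134114711 to 134151865), whose product TCF1 is best known from T cells, was at 7.88 and 6.33 CPM in the controls. With sgEZH2-1 it was at 13.1, 13.5 and 13.7 CPM and with sgEZH2-2 at 13.7, 14.2 and 14.0 CPM. The 6 guide libraries formed a narrow band above the controls, with a mean of 13.7 ± 0.407 CPM (SD, n = 6) against 7.10 ± 1.10 (SD, n = 2). TCF7 rose by 0.92 on the log2 scale with sgEZH2-1 (adjusted p = 0.000488), by 0.98 with sgEZH2-2 (adjusted p = 0.000643) and by 0.95 pooled (adjusted p = 0.00168). It shares 210 exon bases with SKP1 on the opposite strand, whose pooled log2 fold change was -0.098 (adjusted p = 0.530).

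LEF1 (chromosome 4, 108047545 to 108168956, minus strand), a factor that hair follicle progenitors use, stood at 9.02 and 8.35 CPM in the controls. It was at 13.7, 14.1 and 14.1 CPM with sgEZH2-1 and at 13.05, 15.02 and 16.2 CPM with sgEZH2-2, again with no overlap. The log2 fold changes were 0.69 (adjusted p = 0.00278), 0.77 (adjusted p = 0.00306) and, pooled, 0.73 (adjusted p = 0.00668, and up to 0.108 without a control). LEF1-AS1 overlaps 279 exon bases on the opposite strand and has no row of its own. The other factors of the family were not called in any comparison: TCF7L1 had 20.1 and 20.3 CPM in the controls, then 18.2, 20.7 and 18.3, then 17.3, 22.3 and 22.4 (pooled log2 fold change -0.024, adjusted p = 0.952). TCF7L2 had 30.5 and 36.0 CPM, then 33.3, 35.1 and 37.8, then 41.8, 35.0 and 36.2 (pooled 0.14, adjusted p = 0.580). Groups overlapped in both genes.

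**Figure D2:**
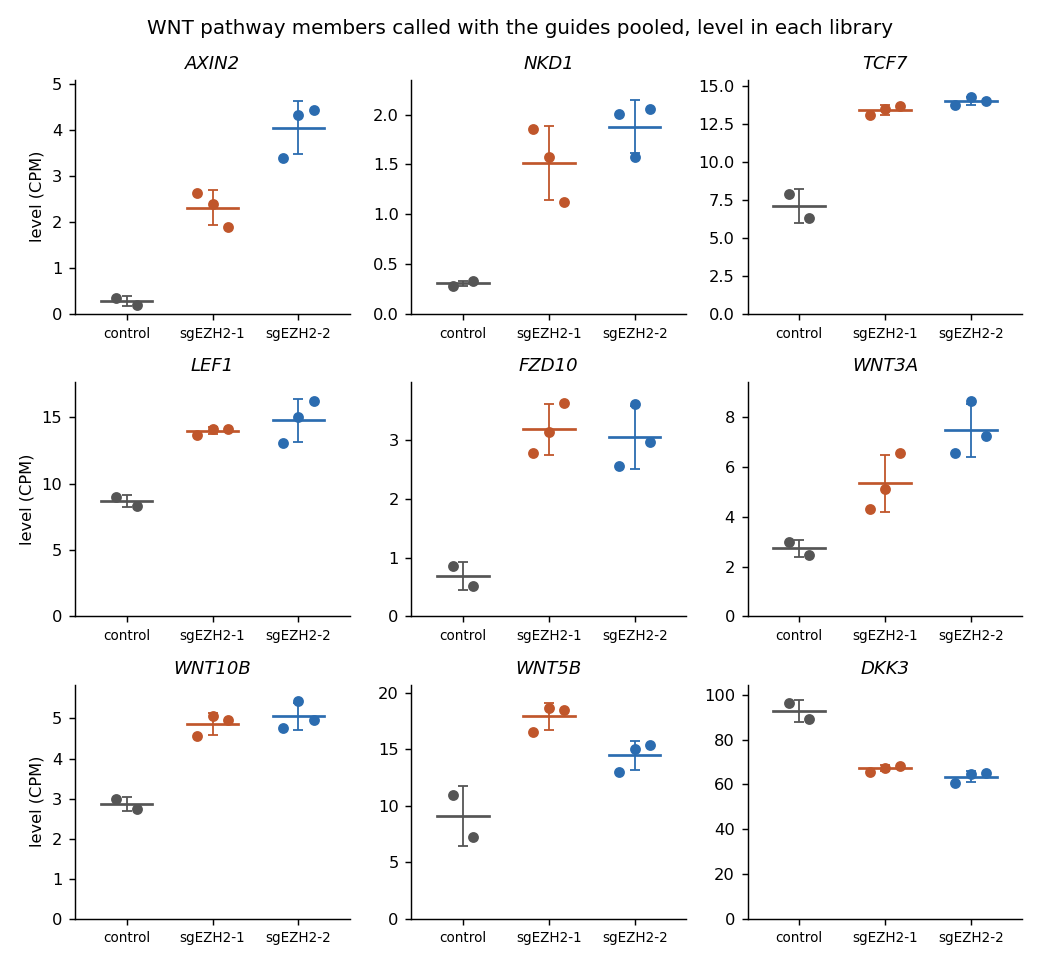
Level in CPM of the 9 members called with the guides pooled, in each library (points), with the group mean (line) and SD (bar) for 2 control, 3 sgEZH2-1 and 3 sgEZH2-2 libraries. In all 9 panels the 6 guide libraries lie on 1 side of both controls, below them for DKK3 and above them for the other members.

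Of the remaining members in this role, APC was called with sgEZH2-1, and CTNNB1 and AXIN1 in no comparison. GSK3B, a kinase of the destruction complex that is not a member, was called higher with sgEZH2-1 (log2 fold change 0.19, adjusted p = 0.0270). It also differed between the guides (0.15, adjusted p = 0.0384). That difference was not called without any single guide library (adjusted p up to 0.138), with upper quartile scaling, without the filter or with DESeq2. The call with sgEZH2-1 was lost without some single libraries. CTNNB1, the beta-catenin gene, was at 334 and 333 CPM in the controls, 334, 318 and 326 with sgEZH2-1, and 309, 311 and 340 with sgEZH2-2 (pooled log2 fold change -0.045, adjusted p = 0.768). Its transcript does not measure the protein, which the pathway controls by degradation. AXIN1, the constitutive scaffold, was at 75.0 and 58.6 CPM in the controls and 49.4, 58.3, 62.5, 62.5, 71.7 and 64.2 with the guides, and its pooled value was -0.12 (adjusted p = 0.721). APC was at 40.3 and 42.6 CPM in the controls, 55.1, 48.3 and 48.5 with sgEZH2-1, and 49.7, 45.9 and 49.0 with sgEZH2-2. APC rose with sgEZH2-1 (log2 fold change 0.29, adjusted p = 0.0304), and had 0.22 with sgEZH2-2 (adjusted p = 0.137) and 0.25 pooled (adjusted p = 0.144). Its call with sgEZH2-1 was lost without any 1 of 4 libraries, both controls among them (adjusted p up to 0.184).

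A set of 10 members counts as common feedback and target genes of the pathway, and 7 of them were tested. Of these 4 rose with the guides pooled (AXIN2, NKD1, TCF7 and LEF1), with a median of 0.73, against 3.76% of all tested genes called higher. With sgEZH2-1 5 rose, DKK1 being the added one, against 11.3%. AXIN2 and NKD1 did not reach the minimum level in both controls, so their place among the 7 tested came from the guide libraries, where they were high. The counts and the median include them, and the rises that do not rest on this are those of TCF7, LEF1 and, with sgEZH2-1, DKK1. RNF43 and ZNRF3, ubiquitin ligases that remove Frizzled from the cell surface, were not called in any comparison. RNF43 was at 18.04 and 17.9 CPM in the controls, below them with sgEZH2-1 (13.7 to 17.6) and above them with sgEZH2-2 (18.8 to 20.2), and it shares 4326 exon bases with AC004687.2 on the same strand, so its level is uncertain. ZNRF3 was at 19.4 and 22.7 CPM against 19.7 to 22.4 with the guides, within the controls. NOTUM, a secreted enzyme that strips the lipid from WNTs, had 0 counts in the controls and 5 over the 6 guide libraries, and LGR5, a stem cell receptor, had 1 count in all.

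WNT7B dominated the ligands. Per kilobase of transcript its control mean was 44.1 ± 4.44 CPM (SD, n = 2), beside 40.5 ± 6.62 for sgEZH2-1 and 43.8 ± 4.09 for sgEZH2-2 (SD, n = 3 for either), and it made up 64.7%, 57.6% and 60.9% of the summed ligand level on that scale. In plain CPM it had 185 and 161 in the controls, 130, 166 and 180 with sgEZH2-1, and 153, 180 and 182 with sgEZH2-2, with overlap (pooled log2 fold change -0.064, adjusted p = 0.860). The next in the controls per kilobase were WNT10A at 4.40 ± 0.360, WNT5B at 3.95 ± 1.14, WNT3 at 3.60 ± 0.174 and WNT5A at 2.81 ± 0.305 CPM, where WNT10A and WNT5B, and WNT5B and WNT3, lay within their spread of each other. WNT9A, WNT7A, WNT10B, WNT4 and WNT3A followed, from 2.48 down to 0.931 CPM per kilobase. The summed CPM of all 19 ligands averaged 255 ± 21.7 over the controls (SD, n = 2), 256 ± 31.5 for sgEZH2-1 and 264 ± 21.7 for sgEZH2-2 (SD, n = 3 for either).

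**Figure D3:**
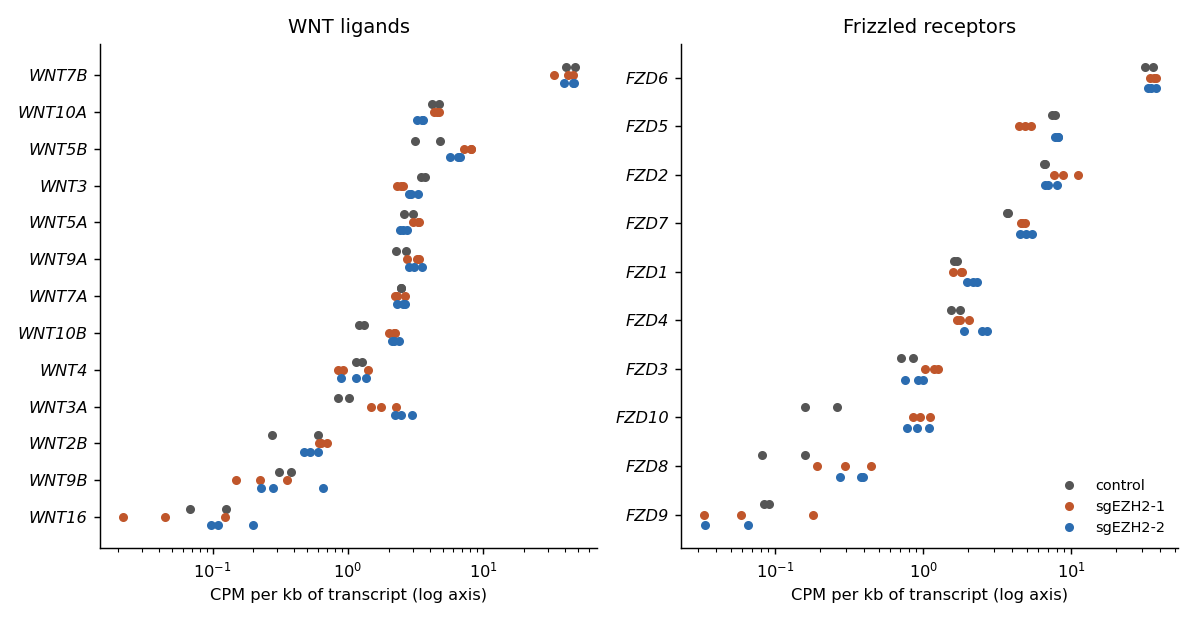
Level per kilobase of transcript (CPM per kb, log axis) of WNT ligands and Frizzled receptors with more than 0.05 CPM per kb in the controls, 1 point per library, ordered by the control mean; libraries at 0 are not drawn. WNT7B and FZD6 stand above the rest in every library, and WNT3A, WNT10B, FZD10 and FZD7 show guide libraries to the right of the controls.

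The ligands that rose were WNT3A, WNT10B and WNT5B, which made up 1.36%, 1.85% and 5.74% of the summed ligand level per kilobase in the controls. WNT3A, a canonical ligand (chromosome 1, 228007051 to 228061260), was at 2.98 and 2.48 CPM in the controls. It reached 4.33, 5.13 and 6.58 CPM with sgEZH2-1 and 6.56, 8.65 and 7.25 CPM with sgEZH2-2. All guide libraries were higher than the controls, and the guides met at their edges. WNT3A rose by 0.97 on the log2 scale with sgEZH2-1 (adjusted p = 0.0131), by 1.45 with sgEZH2-2 (adjusted p = 0.00272) and by 1.23 pooled (adjusted p = 0.0310). The pooled call was lost without any 1 of 5 libraries, both controls among them (adjusted p up to 0.259), and that with sgEZH2-1 without the second control (adjusted p = 0.0794).

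WNT10B, a ligand known from hair follicle growth (chromosome 12, 48965340 to 48971763, minus strand), had 2.98 and 2.74 CPM in the controls, 4.56, 5.06 and 4.97 with sgEZH2-1, and 4.76, 5.43 and 4.96 with sgEZH2-2. The groups of guide libraries were close to each other and clear of the controls. The log2 fold changes were 0.77 (adjusted p = 0.00866), 0.82 (adjusted p = 0.0126) and 0.79 pooled (adjusted p = 0.0194), the last pair lost without either control and the first without the second control (adjusted p = 0.0508). WNT5B (chromosome 12, 1529891 to 1647243), which mostly acts outside the beta-catenin branch, had unequal controls at 10.9 and 7.24 CPM. It stood at 16.5, 18.7 and 18.5 CPM with sgEZH2-1 and at 12.98, 15.02 and 15.3 CPM with sgEZH2-2, so that every sgEZH2-1 library was above every sgEZH2-2 library and all were above the controls. Its log2 fold changes were 0.98 (adjusted p = 0.00196), 0.67 (adjusted p = 0.0306) and 0.83 pooled (adjusted p = 0.0346). Without the second control the last pair had values of 0.40 and 0.56. The pooled call was lost without any 1 of 5 libraries and the call with sgEZH2-2 without any 1 of 3. In both cases the second control and guide libraries were among them.

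WNT3, another canonical ligand (chromosome 17, 46762506 to 46833154, minus strand), went the other way. It was at 12.5 and 11.7 CPM in the controls, at 8.26, 8.48 and 7.77 with sgEZH2-1, and at 9.80, 9.44 and 10.98 with sgEZH2-2. Both guide groups were below the controls, and sgEZH2-1 was below sgEZH2-2. WNT3 fell with sgEZH2-1 (log2 fold change -0.56, adjusted p = 0.00674, and 0.0623 without the first control), while the value was -0.26 with sgEZH2-2 (adjusted p = 0.203) and -0.41 pooled (adjusted p = 0.177). The test of the difference between the guides gave an adjusted p of 0.0682. WNT2B, WNT4, WNT7A and WNT9A were tested and not called in any comparison. Of these WNT9A had all guide libraries above the controls, at 10.8 to 13.9 CPM against 8.93 and 10.7, and the others overlapped.

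Of the ligands, 8 had too few counts to be tested. WNT2 and WNT8A were at 0 in every library, and WNT1, WNT6, WNT8B, WNT11, WNT16 and WNT9B had at most 13 counts in any library. WNT11 and WNT8B had 0 counts in the controls and 10 and 9 over the 6 guide libraries. A count of 0 over both controls allows up to 3 counts, so that these low values show no difference. In all, 4 pairs of WNT genes are close neighbours in the genome, which allowed the members of a pair to be set side by side. WNT3A rose while WNT9A, 59.2 kb away, was at 0.34 (adjusted p = 0.253). WNT10B rose while WNT1, 6.69 kb away, had 1 count in all. WNT3 had 1103 counts over all libraries and WNT9B, 47 bases away, had 50. WNT10A had 1167 and WNT6, 6.13 kb away, 7.

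FZD6 was the main Frizzled, a receptor known for hair and tissue orientation. Its control mean per kilobase was 33.7 ± 2.84 CPM (SD, n = 2), beside 35.9 ± 1.58 for sgEZH2-1 and 34.99 ± 2.19 for sgEZH2-2 (SD, n = 3 for either), or 60.0%, 59.0% and 56.5% of the summed Frizzled level. FZD5 and FZD2 came next, at 7.58 ± 0.273 and 6.61 ± 0.125 CPM per kilobase in the controls, and FZD10 and FZD8 were near the end, at 0.209 ± 0.0712 and 0.120 ± 0.0549. In plain CPM, FZD6 had 120.2 and 135 in the controls, 138, 129 and 141 with sgEZH2-1, and 142, 125 and 131 with sgEZH2-2, and was not called (pooled log2 fold change 0.071, adjusted p = 0.706). With sgEZH2-1 4 of the 9 tested Frizzled genes rose and 1 fell, against 11.3% and 9.51% of all tested genes, and with sgEZH2-2 2 rose, against 6.18%. FZD10, which rose with each guide, and FZD8 were tested through the guide libraries.

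FZD10, a receptor gene of low level in most adult tissues (chromosome 12, 130162459 to 130165740), had 0.852 and 0.522 CPM in the controls, or 12 and 8 counts. It was at 2.78, 3.15 and 3.64 CPM with sgEZH2-1 and at 2.55, 3.62 and 2.98 CPM with sgEZH2-2. The guides overlapped each other and stood clear of the controls. FZD10 rose by 2.21 on the log2 scale with sgEZH2-1 (adjusted p = 0.000729), by 2.14 with sgEZH2-2 (adjusted p = 0.00189) and by 2.18 pooled (adjusted p = 0.00229, and 0.0523 without the second control). FZD8 was at 0.639 and 0.326 CPM in the controls and 0.772 to 1.78 with the guides, all of them higher than the controls, and was not called. FZD1 and FZD4 were not called either, with guide libraries at 11.1 to 16.1 and 12.5 to 19.9 CPM against control means of 11.5 and 12.2 CPM, and FZD9 had at most 6 counts in any library.

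FZD7, a receptor of stem and progenitor cells, was at 14.6 and 14.2 CPM in the controls, 17.9, 18.9 and 17.8 with sgEZH2-1, and 19.0, 20.9 and 17.3 with sgEZH2-2. It rose with each guide, by 0.34 (adjusted p = 0.0364) and 0.41 (adjusted p = 0.0319) on the log2 scale, while the pooled value of 0.37 had an adjusted p of 0.0704. Each of these 2 calls was lost without any 1 of 5 libraries and with DESeq2. FZD2 and FZD3 rose with sgEZH2-1, by 0.48 (adjusted p = 0.0489) and 0.56 (adjusted p = 0.0218), and had 0.12 (adjusted p = 0.720) and 0.18 (adjusted p = 0.534) with sgEZH2-2. FZD2 was at 13.8 and 14.2 CPM in the controls, 16.1, 18.6 and 23.7 with sgEZH2-1, and 14.01, 16.8 and 14.6 with sgEZH2-2. FZD3 was at 9.80 and 11.8 CPM, then 17.4, 14.2 and 16.3, then 13.7, 10.4 and 12.6, so that for both genes the sgEZH2-1 libraries alone cleared the controls. Neither gene was called different between the guides (adjusted p = 0.0794 and 0.0572), and the calls were lost without any 1 of 6 libraries for FZD2 and of 2 for FZD3.

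LRP6 was not called in any comparison, at 36.3 and 46.2 CPM in the controls, 49.9, 46.7 and 45.2 with sgEZH2-1, and 49.1, 43.3 and 46.8 with sgEZH2-2 (pooled log2 fold change 0.18, adjusted p = 0.404). LRP5 had a pooled value of 0.16 (adjusted p = 0.787), with a wide spread among libraries. The R-spondin axis, which raises the number of Frizzled receptors on the cell, was carried by LGR4, at 83.7 and 101 CPM in the controls and 88.3 to 99.4 CPM with the guides. Of its 3 tested members 0 were called in any comparison by edgeR or by DESeq2, and 0 had an unadjusted p under 0.05 against control in edgeR (1 between the guides). Among all tested genes, 4.36% to 21.9% were called in edgeR, depending on the comparison. LGR6 was not tested. It had 0 and 1 counts in the controls and 3, 4, 6, 6, 3 and 7 in the guide libraries, a ratio of 10.4 with an exact 95% counting interval of 1.72 to 424. Of the R-spondins, RSPO2 had 12 counts over the 2 controls and 35 over the 6 guide libraries, or means of 0.412 and 0.424 CPM. The others had at most 5 counts in all.

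Secreted inhibitors came down to DKK1 and DKK3, since DKK2, DKK4, all 4 SFRP genes, WIF1 and NOTUM were too low to be tested. DKK4, SFRP4, SFRP5 and WIF1 were at 0 in every library. DKK3 (chromosome 11, 11963106 to 12009769, minus strand), a divergent family member that is often silenced in tumours, was at 96.2 and 89.3 CPM in the controls. It was at 65.7, 67.4 and 68.3 CPM with sgEZH2-1 and at 60.5, 64.7 and 65.2 CPM with sgEZH2-2, all below the controls. It fell by 0.47 on the log2 scale (adjusted p = 0.000613), by 0.55 (adjusted p = 0.000526) and, pooled, by 0.51 (adjusted p = 0.00201).

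DKK1, an antagonist that binds LRP5 and LRP6 (chromosome 10, 52314296 to 52318042), differed between the guides. It was at 43.7 and 45.0 CPM in the controls, at 71.0, 86.1 and 95.9 CPM with sgEZH2-1, and at 45.9, 37.6 and 42.6 CPM with sgEZH2-2. Only the sgEZH2-1 libraries stood apart, and the sgEZH2-2 libraries surrounded the controls. DKK1 rose by 0.93 with sgEZH2-1 (SE 0.12, adjusted p = 0.000577), against -0.075 with sgEZH2-2 (SE 0.12, adjusted p = 0.780), and the difference between the guides was 1.00 (SE 0.11, adjusted p = 0.000220). Its pooled value, 0.51, had an adjusted p of 0.523. PORCN, the enzyme that attaches the lipid to WNTs, was at 12.1 and 12.7 CPM in the controls and 10.3 to 14.0 CPM with the guides, and was not called.

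The direct comparison of the guides called 6 members, 3 higher and 3 lower with sgEZH2-1 than with sgEZH2-2. The share among all tested genes was 10.4% and 11.5%. FZD5, a receptor gene, was at 49.6 and 52.2 CPM in the controls, at 29.9, 36.1 and 32.6 with sgEZH2-1, and at 52.0, 54.8 and 55.1 with sgEZH2-2. The sgEZH2-1 libraries alone were low. FZD5 fell with sgEZH2-1 (log2 fold change -0.63, adjusted p = 0.000580), had 0.084 with sgEZH2-2 (adjusted p = 0.605) and differed between the guides by -0.71 (SE 0.076, adjusted p = 0.000199). AXIN2 was higher than control with each guide and lower with sgEZH2-1 than with sgEZH2-2 (-0.81, adjusted p = 0.0223).

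The other 3 calls were weaker. LRP5 was at 90.8 and 75.3 CPM in the controls, at 58.8, 81.0 and 91.6 with sgEZH2-1, and at 91.9, 123 and 111 with sgEZH2-2 (difference -0.49, adjusted p = 0.0453). WNT10A, a ligand of skin appendages, was at 11.9 and 10.6 CPM in the controls, 11.6, 12.04 and 11.1 with sgEZH2-1, and 8.28, 9.12 and 9.001 with sgEZH2-2 (0.39, adjusted p = 0.0209). WNT5A, the main non-canonical ligand, was at 16.1 and 18.7 CPM, then 18.8, 20.7 and 20.2, then 15.8, 16.8 and 15.03 (0.33, adjusted p = 0.0275). None of these 3 was called against control with either guide. Without some single libraries the adjusted p reached 0.160 for LRP5, 0.0802 for WNT10A, 0.107 for WNT5A and 0.0829 for AXIN2, and DESeq2 lost the calls of WNT10A, WNT5A and AXIN2 (adjusted p from 0.0639 to 0.0735). DKK1 and FZD5 stayed called without each library in turn.

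**Figure D4:**
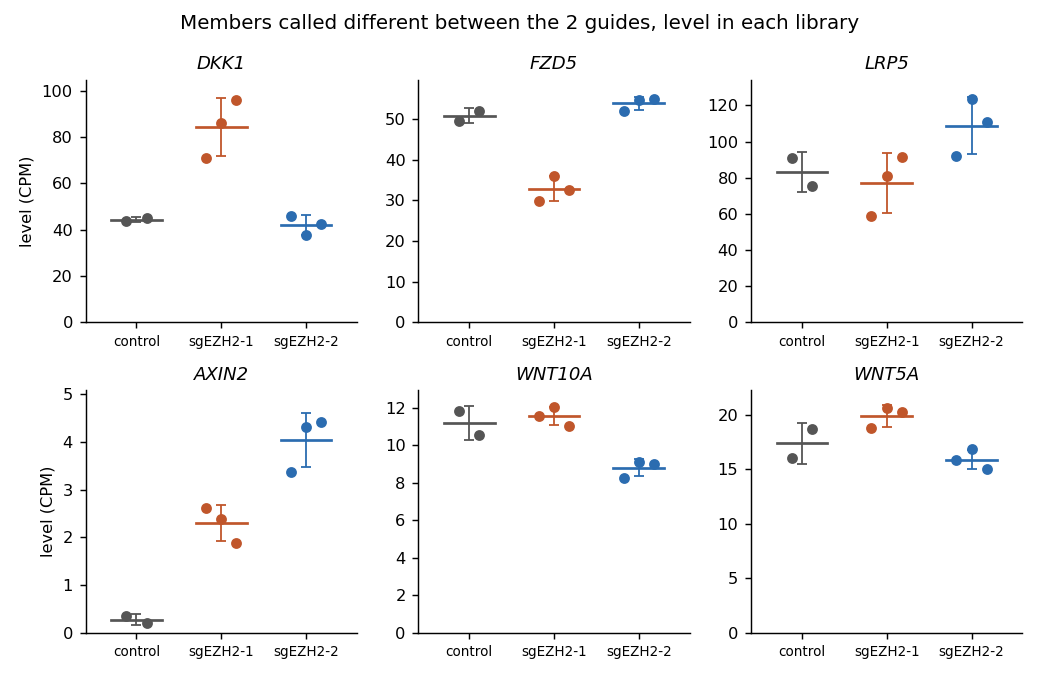
Level in CPM of the 6 members called different between sgEZH2-1 and sgEZH2-2, in each library (points), with the group mean (line) and SD (bar) for 2 control, 3 sgEZH2-1 and 3 sgEZH2-2 libraries. DKK1 is high and FZD5 low with sgEZH2-1 alone, and AXIN2 is above control with each guide.

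Genes of the pathway outside the families were taken from a list of 84, of which 74 were tested. With the guides pooled 4 rose and 1 fell (6.76% called, against 4.36% of all tested genes), with sgEZH2-1 16 rose and 13 fell (39.2% against 20.8%), and with sgEZH2-2 8 rose and 2 fell (13.5% against 8.68%). The rises with the pooled guides were those of TRABD2A, PYGO1, BCL9 and SULF2. TRABD2A, the metalloprotease TIKI1 that clips and inactivates WNTs, had 0 counts in both controls, 20, 18 and 13 counts with sgEZH2-1 and 9, 12 and 12 with sgEZH2-2. That made it at least 10.03-fold higher against a floor of 3 counts over both controls (pooled adjusted p = 0.00490, and 0.0575 without the second control). PYGO1 and BCL9 encode partners that tie beta-catenin to the transcription machinery. PYGO1 was at 0.142 and 0.326 CPM in the controls, at 4.63, 4.72 and 3.85 with sgEZH2-1, and at 2.07, 1.89 and 2.06 with sgEZH2-2. It rose by 4.16 with sgEZH2-1 (adjusted p = 2.09e-05), by 3.03 with sgEZH2-2 (adjusted p = 0.000642) and by 3.71 pooled (adjusted p = 0.00875, and 0.138 and 0.0881 without the first and the second control). TRABD2A and PYGO1 did not reach the minimum level in both controls and so were tested through the guide libraries. The same held for TNFRSF19, which is among the 16 rises with sgEZH2-1 and passed through the sgEZH2-1 libraries.

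BCL9 was at 22.4 and 24.2 CPM in the controls, 31.2, 33.1 and 34.2 with sgEZH2-1, and 34.5, 34.8 and 36.2 with sgEZH2-2, clear of the controls, and rose by 0.55 pooled (adjusted p = 0.00499, and up to 0.0883 without a control). SULF2, a sulfatase that frees WNTs from heparan sulfate, was at 51.3 and 49.8 CPM in the controls and 59.8 to 65.9 with the guides, a rise of 0.32 pooled (adjusted p = 0.0249, and 0.154 and 0.213 without a control). CBY1, which removes beta-catenin from the nucleus, was the gene that fell, from 28.6 and 31.1 CPM to 19.5 to 24.9 CPM (pooled log2 fold change -0.46, adjusted p = 0.0313, and up to 0.267 without a control). A list of 16 transducers held cytoplasmic genes such as those of Dishevelled and of kinases of the destruction complex, GSK3B among them. With sgEZH2-1 1 rose and 2 fell, against 20.8% of all tested genes called, and 2 were called between the guides, against 21.9%. In this group 0 were called with the guides pooled or with sgEZH2-2 by edgeR or DESeq2, with 1 unadjusted p under 0.05 in each case in edgeR. The shares of all tested genes called there in edgeR were 4.36% and 8.68%.

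Of 13 tested genes of alternative receptors and planar polarity, 3 rose and 1 fell with sgEZH2-1 (30.8% called, against 20.8% of all tested genes). With sgEZH2-2 0 were called by edgeR or DESeq2, against 8.68% of all tested genes in edgeR, where 2 of the 13 had an unadjusted p under 0.05. ROR1, a receptor of WNT5A, was at 0.781 and 0.913 CPM in the controls, 5.10, 5.27 and 5.11 with sgEZH2-1, and 1.59, 0.787 and 1.22 with sgEZH2-2. The 3 sgEZH2-1 libraries lay far above all others. ROR1 rose by 2.59 with sgEZH2-1 (adjusted p = 0.000153), against 0.51 with sgEZH2-2 (adjusted p = 0.408), and the difference between the guides was 2.08 (adjusted p = 0.000233). Common target genes outside the families, MYC, CCND1 and CD44 among them, gave 0 calls of 14 with the guides pooled in edgeR, against 4.36% of all tested genes. Of the 14, 3 had an unadjusted p under 0.05 in edgeR, and 2 were called in DESeq2. With sgEZH2-1 6 of them rose and 3 fell, against 11.3% and 9.51% of all tested genes, and with sgEZH2-2 1 fell, against 2.50%. The 6 rises include TNFRSF19, with 2 and 1 counts in the controls and 11, 13 and 16 with sgEZH2-1. It was tested through the sgEZH2-1 libraries, where it was high.

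**Figure D5:**
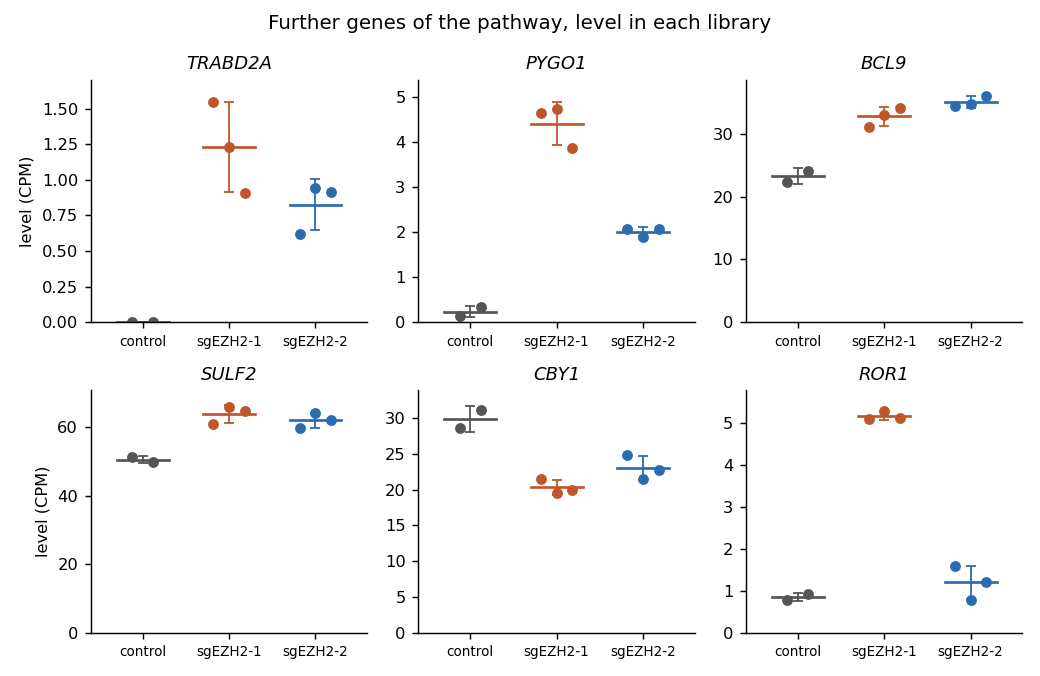
Level in CPM of 6 further genes of the pathway in each library (points), with the group mean (line) and SD (bar) for 2 control, 3 sgEZH2-1 and 3 sgEZH2-2 libraries. TRABD2A is at 0 in both controls, and ROR1 is high with sgEZH2-1 alone.

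The genomic neighbours of the 9 members called with the guides pooled were listed after the members' values had been seen. Of 18 nearest protein-coding genes, 1 on each side, 12 were tested. With the guides pooled or with sgEZH2-2, 0 were called by edgeR or DESeq2 (1 and 3 unadjusted p under 0.05 in edgeR). In edgeR 4.36% and 8.68% of all tested genes were called there, so few calls would be seen among 12 genes at those shares. Pooled log2 fold changes ran from -0.15 to 0.46, with adjusted p of at least 0.253. With sgEZH2-1 2 of the 12 were called, against 20.8% of all tested genes: MICAL2, 84.2 kb from DKK3, with 0.42, and HADH, 12.4 kb from LEF1, with -0.30. Of the 18, AC004805.1, SKP1 and FBXL14 overlap the body of the member itself. FZD10 lies between TMEM132D, with 0 counts in every library, and PIWIL1, with 9 counts in all.

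Leaving out single libraries changed which calls stood. Of the 9 members called with the guides pooled, TCF7 and DKK3 remained called without any 1 library. With sgEZH2-1 that held for 9 of 16 members (AXIN2, NKD1, TCF7, LEF1, FZD10, WNT5B, DKK1, DKK3 and FZD5), and with sgEZH2-2 for 7 of 10 (AXIN2, NKD1, TCF7, LEF1, FZD10, WNT3A and DKK3).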

How the data were processed

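The 8 HSC-5 libraries were stranded and made from mRNA (TruSeq), per the labels' protocols. The authors deposited read counts, whole numbers per gene without normalization, with 1 column per library whose header names the group and no replicate number. FastQC, STAR, DESeq and hg38 are named in the submitters' processing notes. How reads were counted, and whether by strand, is not given in the sources used here, so genes that overlap may share reads. The table held 0 unnamed rows and 0 unused columns.

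Genes were filtered with filterByExpr of edgeR 4.0.16 (R 4.3.3) at a minimum count of 10, which left 13124, and scaled by trimmed mean of M values, with scaling factors from 0.985 to 1.02. The test was edgeR's quasi-likelihood F test, two-sided, with Benjamini-Hochberg adjustment over all tested genes. The pooled comparison was a fit of 2 levels. The guides were compared with control and with each other in a fit of 3 groups. The standard error came from the F statistic. DESeq2 1.42.0, other scalings, no filter, other designs and leaving out each library were alternatives. The code was tested on simulated data. Levels per kilobase used the principal transcript of GENCODE 29, and all 61 members matched by symbol. Coordinates are of that release (GRCh38). Counting intervals cover counting error only, since reads are not independent molecules.

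Members named with the values of each library were those called in at least 1 comparison, 10 core genes whatever their values, and the most abundant WNT and Frizzled gene. Of the other pathway genes, up to 4 per group with the smallest pooled adjusted p were eligible. The members and lists were chosen with earlier results of these data known.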

Additional observations from a re-analysis of the deposited data

Results flagged for a closer look

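For 6 members the effects of the 2 guides differed by a direct test of that difference in edgeR, given as the log2 fold change of sgEZH2-1 against sgEZH2-2. DKK1 was at 1.00 (adjusted p = 0.000220), WNT10A at 0.39 (adjusted p = 0.0209) and WNT5A at 0.33 (adjusted p = 0.0275). FZD5 was at -0.71 (adjusted p = 0.000199), AXIN2 at -0.81 (adjusted p = 0.0223) and LRP5 at -0.49 (adjusted p = 0.0453). Among all tested genes 21.9% were called in this comparison, and among the 37 tested members 16.2%. EZH2 was at 48.0 to 56.4 CPM with sgEZH2-1 and 65.1 to 73.9 CPM with sgEZH2-2, and its part in these differences was not tested.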

How the results depend on the processing

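The number of members called higher and lower with sgEZH2-1 and with sgEZH2-2 stayed within 1.5 times under every alternative run (9 to 13 and 2 to 3 with sgEZH2-1, 6 to 11 and 1 with sgEZH2-2, without 1 library each). With the guides pooled, 1 to 8 members were called higher without 1 library, with 1 without the second control and 4 without the first, where the test has 1 control that is assumed to vary like the other groups. As the mean of both guides in the fit of 3 groups, 11 were called higher and 3 lower (APC, DKK1 and FZD7 added above and WNT3 and FZD5 below). Between the guides, 1 to 4 were higher and 1 to 5 lower without 1 library. DESeq2 called 1 higher there, and upper quartile scaling 5 lower. The cause of these moves was not tested. Values that were not called changed sign without 1 library in the pooled comparison, with ranges of -0.29 to 0.073 for AXIN1, -0.0066 to 0.16 for FZD6, -0.062 to 0.025 for TCF7L1, -0.059 to 0.16 for WNT5A and -0.16 to 0.047 for WNT7B. Over all genes the pooled calls numbered 494 higher and 78 lower, against 655 and 160 with DESeq2 1010 and 602 in the fit of 3 groups, 155 and 8 without the first control, and 135 and 10 without the second. With the 6 letter motif CTTTGA, 0 of the 6 promoter windows matched, against 11.2% of all windows. No paired analysis was possible because the columns of the table carry no replicate numbers. Depth limits the 24 untested members and, among the tested ones, AXIN2, NKD1, FZD8 and FZD10, with 8, 9, 14 and 20 counts over both controls.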
